A study of Mus musculus with 3 samples.

Results

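Rab GTPases and the proteins that regulate or read them were examined in mouse four-cell embryos. Members were every non-control probe whose gene name on the array begins with Rab and a digit, Tbc1d, Rabgap, Rabgef, Rabep or Rabif, and those of GDP dissociation inhibitors (GDI). This gave 101 of 27670 gene names, measured by 191 of 41174 probes. Among them were 55 Rab GTPases, 28 TBC proteins, 9 effectors, 5 exchange factors and 2 subunits of the Rab3 GAP. No measured value enters the name rule, but the family was picked with results from these HP over control ratios in view, so its ratios are given as a description.

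For the HP group, oocytes were exposed to a high hydrostatic pressure of 20 MPa at 37 °C, with a duration of 60 min. Control oocytes went through the same handling without the pressure step. All oocytes were then fertilised by sperm injection (the series title says in vitro) and cultured to the four-cell stage, and total RNA was taken from pools of whole embryos. The HP group had 3 pools (44, 30 and 37 embryos), and so had the control group (36, 33 and 24 embryos). The HP and control pools with the same replicate number shared a two-colour Agilent array, with HP in Cy5 and control in Cy3 on all 3 arrays, so dye and pressure cannot be told apart. The labels used here give no strain or age of the mice.

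Rabs are small GTPases that mark membranes and direct where vesicles form, move and fuse. An exchange factor loads a Rab with GTP, the active Rab then recruits effectors, and a GTPase-activating protein, usually one with a TBC domain, ends the signal. GDI then extracts the inactive Rab from the membrane. In early embryos such traffic turns over maternal membrane proteins by endocytosis, sends membrane to the cleavage furrow and supplies the cell surface.

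Ratios are log2 of HP over control after loess normalization, with a moderated standard error (SE) over n = 3 arrays. Signals are log2 intensities of a single pool after normalization, and they compare pools, not genes. Tests were limited to the 8581 probes that the scanner software found well above background on at least 2 arrays in HP or on at least 2 in control. Non-control spots well above background ranged from 17.5% to 19.9% in HP and from 18.5% to 23.2% in control, and the small number of arrays limits the precision. Replicates 2 and 3 of HP stood close together, with an SD over probes of 0.229 for their difference in log2 signal, against 0.455 to 0.630 for all other pairs of pools. The p-values rest on the variation among 3 pairs of pools and on nothing wider, and fewer cells of a type and less RNA per cell cannot be told apart. Of 17 measured oocyte and embryo markers 11 were tested and 10 of these had ratios above 0, beside 48.5% of all tested genes. Above 0 on all 3 arrays were 7 of them, beside 23.5% of all tested genes. Zp3, Nlrp14, Bmp15 and Zfp42 had arrays on both sides of 0. The summed signal of the 11 tested markers was 30375 to 47774 in HP and 20007 to 21819 in control. It rests mostly on the brightest, Oog1, Sall4 and Dppa3, with mean log2 intensities of 13.2, 13.0 and 12.9. Their ratios were 1.49, 0.74 and 0.26. The part of the summed signal in the results below was not tested. Nlrp5, Zar1, Padi6, Ooep and Zp2 were not well above background in any pool, and Pou5f1 was so in 1 control pool only. Of 12 markers of cumulus and granulosa cells only Amhr2 was tested, with a summed signal of 920 to 1023 in HP and 803 to 976 in control. Of 8 sperm markers only Prm1 was tested, at 91.2 to 110 in HP and 94.5 to 111 in control.

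Of the 191 member probes 65 were tested, for 53 genes, and 105 were not well above background in any pool. The untested genes include 26 Rab GTPases, such as Rab4a, Rab4b, Rab5b, Rab5c, Rab8a, Rab21, Rab22a, Rab25, Rab27a, Rab27b and Rab31, and 14 TBC proteins, such as Rabgap1, Tbc1d1, Tbc1d4, Tbc1d5, Tbc1d7 and Tbc1d9. Rab3gap1, Rab3ip, Rabgef1, Rabif, Rab11fip2, Rab11fip3 and Rab11fip4 were untested too. No member spot was saturated.

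With limma and Benjamini-Hochberg adjustment over all 8581 tested probes, 0 of 65 member probes had an adjusted p under 0.05 (lowest 0.181), as did 0% of all tested probes. At an unadjusted limma p under 0.05 there were 13 member probes, 4 above 0 and 9 below, where 17.8% of all tested probes reached that level, 7.07% above 0 and 10.7% below. Without replicate 2 the count was 6 of 65 member probes, beside 9.56% of all tested probes in the same fit. By the brightest probe of each gene, 12 of 53 member genes reached it, beside 18.7% of all tested genes. Ratios were above 0 on all 3 arrays for 12 of 65 member probes, beside 22.9% of all tested probes, and below 0 on all 3 for 18, beside 24.9%. HP and control signals did not overlap for 15 of 65 member probes, against 25.7% of all tested probes.

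Probes of Rab11a, Rab11b, the Rab11 adaptor Rab11fip1 and the exchange factor Rab3il1 are shown because probes of the same gene differed for Rab11a and Rab3il1 and were alike for Rab11fip1. Each line gives 30 of the 60 bases of a probe as listed in the array files, 5′ to 3′. The letters AATAAA, a common polyadenylation signal, are in capitals where a probe holds them.
Rab11a, A_51_P277505: gaatcttcccatgtcttaagtcttttgatt
Rab11a, A_52_P444162: atgacattgctaagcatctcacatatgaaa
Rab11b, A_51_P361580: acctgtctgcaagtgaagcaatatcttcgt
Rab11fip1, A_52_P595668: ttttatttaatctctcttacagtactaggg
Rab11fip1, A_52_P68033: catctctcaagagttaattctcctagctga
Rab3il1, A_51_P451759: tgcatagagtcctttgAATAAAttaccgtt
Rab3il1, A_51_P451758: aatgtctccaatctgaacaaggtggagaga

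The line for A_51_P451759 shows bases 31 to 60 and the other lines show bases 1 to 30. In the coordinates of the array design (mouse mm7) the Rab11fip1 probes lie at chr8:25896472-25896531 and chr8:25898605-25898664 on the minus strand, 2133 bases apart. The Rab3il1 probes lie at chr19:9715455-9715514 and chr19:9715154-9715213 on the plus strand, 301 bases apart. The Rab11b probe lies at chr17:31821584-31821643 on the minus strand. Both Rab11a probes are placed on the unordered part of chromosome 9, at 3296871 to 3296930 and at 3306917 to 3306976, on the minus strand. Which exon or untranslated region each probe falls in was not determined here. As printed, AATAAA occurs in 7.09% of all tested probes and in 7 of 65 member probes, and its complement on the other strand in 4.49% and in 4 member probes, A_52_P595668 among them.

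The recycling Rabs did not share a direction. Rab11a and Rab11b are close relatives that return internalised cargo from recycling endosomes to the cell surface. The brighter Rab11a probe had log2 signals of 8.61, 10.13 and 10.01 in the HP pools of replicates 1, 2 and 3, against 8.76, 8.11 and 8.58 in the control pools. Its ratio was 1.10 ± 0.47 (adjusted p = 0.315), with −0.15, 2.01 and 1.44 on the 3 arrays, so HP was higher on arrays 2 and 3, whose HP pools stood close together, and not on array 1. Counting replicates 2 and 3 as 1 replicate, the ratio was 0.79, and without replicate 1, 2 or 3 it was 1.72, 0.64 or 0.93, in no case past adjustment. With the scaling changed to median centring it was 0.27. The dimmer Rab11a probe gave −0.18 ± 0.22, with −0.74, 0.10 and 0.11. It had low log2 signals, 6.47 to 6.70 in HP and 6.36 to 7.44 in control, and was well above background in 3 HP and 2 control pools. The part of low signal in the difference between the probes was not tested.

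Rab11b had signals of 8.64, 8.02 and 8.02 in HP, against 9.41, 9.18 and 8.52 in control. HP was lower on each array, though the pools overlapped. The ratio was −0.81 ± 0.17 (adjusted p = 0.181), with −0.77, −1.16 and −0.50. Rab35, which acts in recycling to the cell surface and in cytokinesis, was at 0.17 ± 0.23, with arrays on both sides of 0.

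Rab11fip1, an adaptor that binds active Rab11 and sorts cargo for recycling, was lower in HP by both of its tested probes. Its brighter probe had signals of 8.58, 8.87 and 9.01 in HP, against 9.27, 9.77 and 10.05 in control. The other had 8.03, 8.31 and 8.33 in HP, against 9.06, 9.62 and 9.36 in control. For both probes all HP pools were below all control pools. Their ratios were −0.88 ± 0.12 and −1.12 ± 0.12, or 1.84-fold and 2.18-fold lower in HP (adjusted p = 0.181 for each). The dimmer of them, at −1.04, −1.31 and −1.03, was the only member probe with at least a 2-fold difference on all 3 arrays, as were 0.21% of all tested probes in the lower direction. Over all settings tried the brighter probe ran from −1.73 to −0.80, and it passed adjustment with median centring (adjusted p = 0.0420), as did 1144 of all 8581 tested probes.

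**Figure D1:**
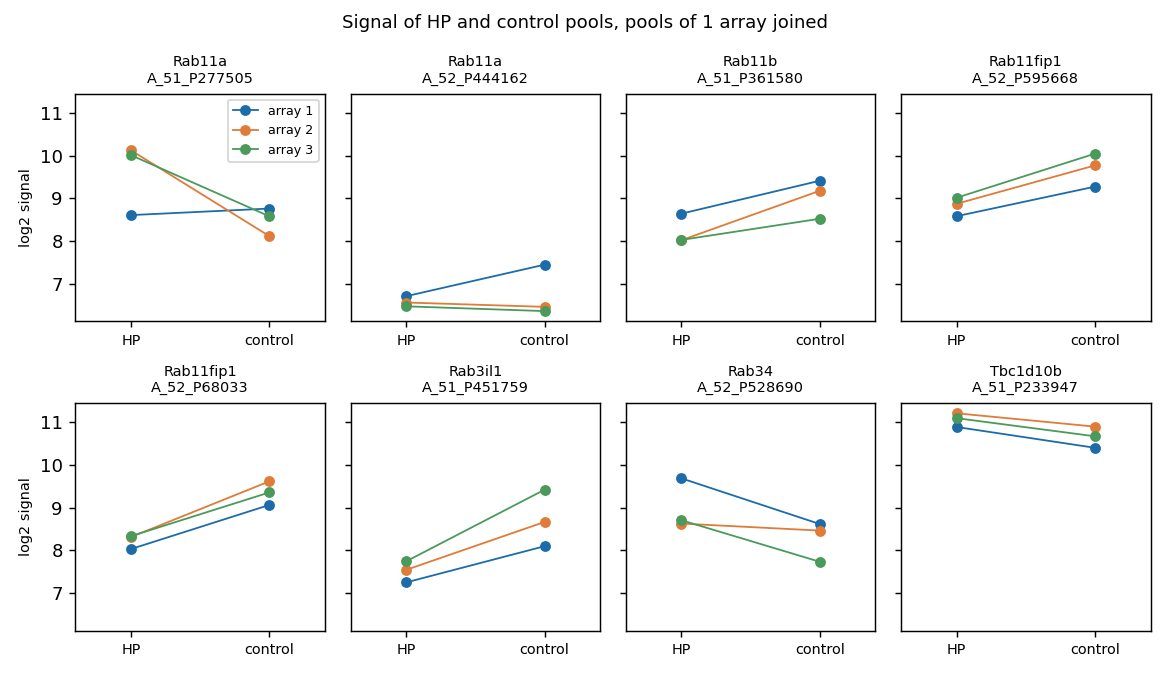
Log2 signal (vertical axis) of 8 probes in the HP pool and the control pool of each array, joined by a line for each of 3 arrays. Both Rab11fip1 probes slope the same way on each array, while the brighter Rab11a probe is near level on array 1 and steep on arrays 2 and 3, and the dimmer Rab11a probe shows no such slope.

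The other effectors also lay mostly below 0. Rabep2, a relative of the Rab5 effector Rabep1, was at −0.77 ± 0.25, with −0.17, −0.85 and −1.28 on the 3 arrays (adjusted p = 0.256). All HP signals of Rabep2, 7.30 to 7.74, were below all control signals, 7.90 to 8.75. Rabep1 itself, which links early endosomal Rabs and partners a Rab5 exchange factor, was at 0.18 ± 0.28 with arrays on both sides of 0.

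Erc1, named Rab6ip2 on the array, binds Rab6 and helps vesicles dock at the cell cortex. It was well above background in all control pools and in no HP pool. Its mean signal was 1.78-fold lower in HP, at 6.29 in HP and 7.12 in control (adjusted p = 0.228). The ratios on the 3 arrays were −1.05, −1.22 and −0.23. The dim signal was not below the lowest detected signal of the array, so this is a mean ratio and not a lower limit. The same holds for the members below with no pool well above background in 1 channel. Rab11fip5, another Rab11 adaptor, was at −0.15 ± 0.10, and Rabepk, a Rab9 effector classed here after its values were seen, was at −0.08 ± 0.11. In all 5 of 6 effector genes were below 0 on all 3 arrays, beside 25% of all tested genes, and the median of the effectors was −0.46 beside −0.01 for all tested genes. Erc1 and Rabepk passed the filter through control alone, and such a pass favours a ratio below 0. With 6 genes this is a count and not a test.

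The exchange factors went both ways. Rab3il1, an exchange factor for Rab8, had the lowest ratio of the family. Its brighter probe had signals of 7.25, 7.54 and 7.74 in HP, against 8.10, 8.67 and 9.42 in control. The HP pools were all below the control pools, and the ratio was −1.22 ± 0.20, or 2.33-fold lower in HP (adjusted p = 0.181). The other probe, with no AATAAA in its 60 bases, was not well above background in any HP pool. It gave −0.07 ± 0.10, or 1.05-fold lower in HP (adjusted p = 0.740). The low ratio thus comes from a single probe, and averaging both probes gave −0.64. Dennd5a, named Rab6ip1 on the array, binds Rab6 and activates Rab39. It had HP signals of 7.61 to 7.78 and control signals of 7.22 to 7.53, with a ratio of 0.27 ± 0.12 (−0.32 with median centring).

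Gdi2, a widely expressed GDI, was at −0.42 ± 0.23, with −0.94, −0.37 and 0.06. Its dimmer probe was not well above background in any HP pool, at −0.28 ± 0.13, or 1.22-fold lower in HP (adjusted p = 0.340). Rab3gap2, the non-catalytic subunit of the GAP of Rab3, was at 0.15 ± 0.14 from arrays 1 and 2, since its spot on array 3 was an outlier by the scanner software and was left out.

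**Figure D2:**
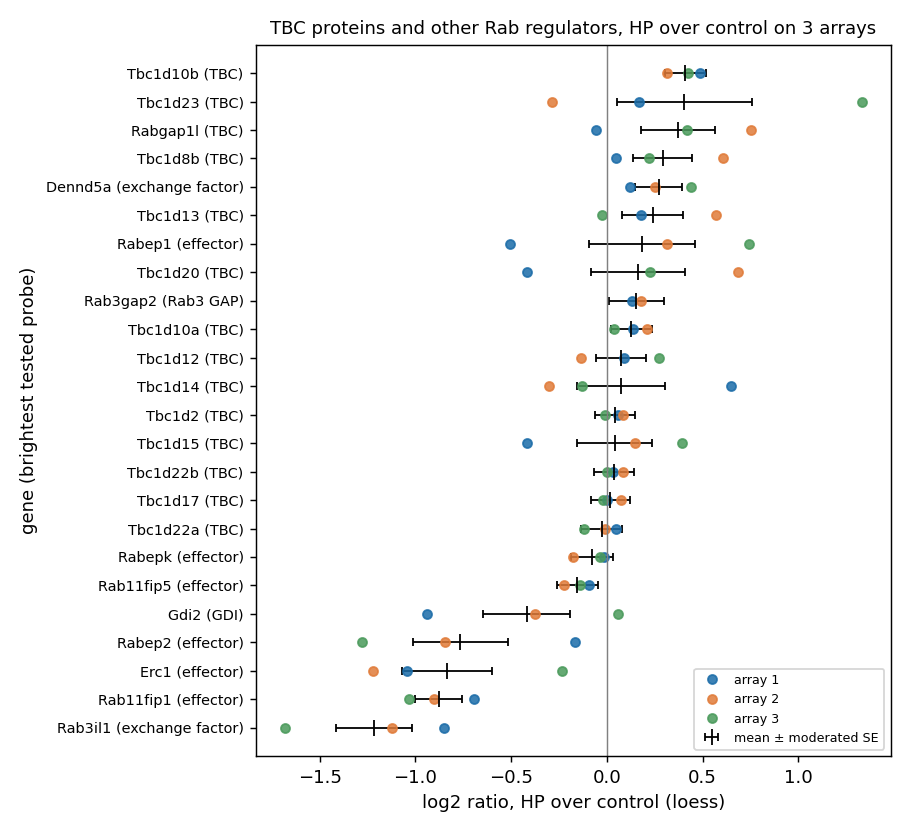
Log2 ratio of HP over control (horizontal axis) for the brightest tested probe of 24 regulators and effectors, with 1 point per array and the mean with its moderated SE. TBC proteins take most of the upper rows, and Rab3il1, Rab11fip1, Erc1 and Rabep2 the lowest.

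Among Rabs of the early secretory route, Rab1a, which directs transport from the endoplasmic reticulum to the Golgi, had signals of 11.36, 11.26 and 11.20 in HP, against 11.14, 10.70 and 10.69 in control. The HP pools lay above the control pools, at 0.43 ± 0.13 (adjusted p = 0.235), but the ratio was −0.59 with median centring. Its relative Rab1b was at −0.12 ± 0.11. Rab18, a Rab of lipid droplets and the endoplasmic reticulum, had signals of 7.06, 7.42 and 7.59 in HP, against 8.87, 7.56 and 8.68 in control. The groups overlapped slightly, through array 2, where the ratio was −0.14, against −1.81 and −1.09 on arrays 1 and 3, for a mean of −1.01 ± 0.35 (adjusted p = 0.272).

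Rab2b, which acts between the Golgi and the endoplasmic reticulum, was chosen for mention after its values were seen, at −0.78 ± 0.37 with 0.13, −1.60 and −0.88. Rab2a, its relative, was at 0.02. Rab33a, a Golgi Rab, was at 0.41 ± 0.16, with HP signals of 7.28 to 7.68 and control signals of 6.92 to 7.21 (−0.10 with median centring). Rab6a, which acts in transport within and from the Golgi, was at −0.10 ± 0.19 and −0.02 ± 0.10 by its probes. Rab39 was at −0.49 ± 0.22, with −0.99, −0.49 and −0.00, and was well above background in 1 HP and 2 control pools.

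Rabs of early and late endosomes were below 0 by their brightest probes. Rab5a, which controls fusion of early endosomes, was even over the arrays, at −0.30, −0.30 and −0.37, with a mean of −0.32 ± 0.10 (adjusted p = 0.250). Its dimmer probe gave −0.08 ± 0.12. Rab14, which acts between endosomes and the Golgi, was at −0.35 ± 0.20, with −0.66, −0.52 and 0.14. All 5 tested Rabs of the late endosome, lysosome and autophagy list were below 0, with a median of −0.06, beside 51.5% of all tested genes. They were Rab7, which drives fusion with lysosomes, at −0.06 ± 0.13 and 0.06 ± 0.11 by its probes, Rab9, which acts in return from late endosomes to the Golgi, at −0.01 ± 0.13, Rab24, linked to autophagy, at −0.34 ± 0.20, Rab29 (Rab7l1 on the array) at −0.34 ± 0.11, and Rab32 at −0.02 ± 0.12. For Rab24 and Rab29 HP was lower on each array, but the HP signal was well above background in 1 pool each.

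Rabs of exocytosis, cilia and polarised transport had a median of 0.04, with 6 of 9 above 0, beside 48.5% of all tested genes. Rab34, which acts early in cilium formation, was at 0.74 ± 0.23 with 1.07, 0.16 and 0.98 on the arrays (adjusted p = 0.242). Its signals were 9.69, 8.63 and 8.71 in HP, against 8.62, 8.46 and 7.73 in control. The lowest HP pool lay just above the highest control pool. Rab34 was at −0.022 with median centring. Rab8b, a Rab of exocytosis, was well above background in all HP pools and in no control pool. Its mean signal was 1.35-fold higher in HP (6.61 in HP and 6.18 in control, adjusted p = 0.244). Rab10, which also acts in exocytosis, had probes at −0.27 ± 0.19, 0.12 ± 0.16 and −0.04 ± 0.13. Rab23, which limits Hedgehog signalling, had probes at −0.10 ± 0.14 and 0.41 ± 0.15. The other tested Rabs, Rab3a and Rab3d of regulated secretion, Rab19, Rab28, Rab33b, Rab37 and Rab40c, lay between −0.20 and 0.10.

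**Figure D3:**
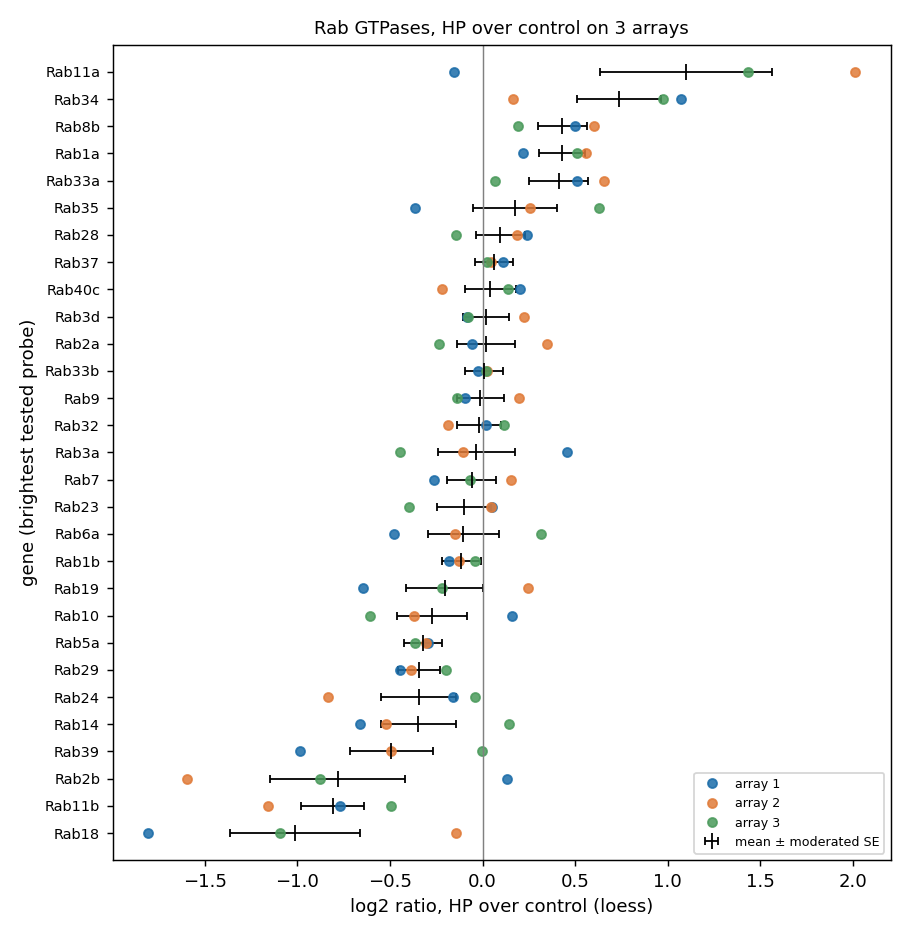
Log2 ratio of HP over control (horizontal axis) for the brightest tested probe of 29 Rab GTPases, with 1 point per array and the mean with its moderated SE. Rab11a is at the top with arrays on both sides of 0, and Rab18, Rab11b and Rab2b are at the bottom.

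TBC proteins lay in a narrower range. Their ratios ran from −0.03 to 0.41 over 14 genes, with an SD over genes of 0.15, and those of Rab GTPases from −1.01 to 1.10 over 29 genes, with an SD of 0.44. The SD over all tested genes was 0.42, so the Rab genes spread about as all tested genes did. Above 0 were 13 of 14 TBC genes and 12 of 29 Rab genes, beside 48.5% of all tested genes, and below 0 were 1 TBC gene, Tbc1d22a, and 17 Rab genes, beside 51.5%. A gene that passes the filter through 1 channel alone is favoured toward that channel. Tbc1d8b, Rabgap1l, Rab2a, Rab3d, Rab8b, Rab32 and Rab37 passed through HP alone. Rab14, Rab24, Rab29 and Rab39 passed through control alone. These genes enter the counts and the medians. Above 0 on all 3 arrays were 3 TBC genes and 5 Rab genes, beside 23.5% of all genes, and below 0 on all 3 arrays were 0 TBC genes and 7 Rab genes, beside 25% of all genes.

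Tbc1d10b, a GAP for Rab35, had signals of 10.89, 11.21 and 11.10 in HP, against 10.40, 10.90 and 10.67 in control. The highest control pool slightly exceeded the lowest HP pool, while HP was higher on each array, at 0.49, 0.31 and 0.43. The mean was 0.41 ± 0.11 (adjusted p = 0.211), or −0.60 with median centring. Tbc1d10a, of the same group, was at 0.13 ± 0.11, with HP signals of 6.58 to 6.69 and control signals of 6.47 to 6.54. Tbc1d8b was at 0.29 ± 0.15, or 1.23-fold higher in HP (adjusted p = 0.375), and was not well above background in any control pool. Rabgap1l was not well above background in any control pool either. It was 1.29-fold higher in HP by its mean (adjusted p = 0.372), with −0.06, 0.75 and 0.42 on the arrays.

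By their brightest probes, the other TBC genes had arrays on both sides of 0. Tbc1d23, a Golgi adaptor, was at 0.40 ± 0.35 with 0.17, −0.29 and 1.33, so that it was above 0 mainly on array 3. Tbc1d20, a GAP of Rab1, was at 0.16 ± 0.25, and Tbc1d13, a GAP of Rab35, at 0.24 ± 0.16. Tbc1d12 gave 0.08 ± 0.13 and 0.15 ± 0.11 by its probes. Tbc1d15, a GAP of Rab7 at mitochondria, gave 0.04 ± 0.20 and −0.15 ± 0.13. Tbc1d2, Tbc1d14, Tbc1d17, Tbc1d22a and Tbc1d22b lay between −0.03 and 0.07.

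The median log2 ratio was −0.09, 0.03 and −0.04 for Rab genes on arrays 1, 2 and 3, and 0.05, 0.12 and 0.13 for TBC genes. The difference, Rab minus TBC, was −0.14, −0.09 and −0.17, for a mean of −0.13 ± 0.04 (SD, n = 3 arrays). It has the same sign on each array, and no test was made because the members were chosen with the ratios known. Over the other settings it ran from −0.39 with median centring, where the medians were −0.52 for Rab genes and −0.13 for TBC genes, to −0.031 with no filter on dim probes. Median centring moved the median of all tested probes to −0.37, and then 2 of 29 Rab genes and 2 of 14 TBC genes were above 0. The share of all tested genes above 0 in that setting is not given here. The side of 0 on which the TBC genes lie thus depends on the scaling. TBC probes were also dimmer. Of the TBC genes 8 of 14 had a mean log2 intensity under 7, as had 14 of 29 Rab genes, and the offset of 50 added before the logarithm narrows the ratios of dim probes. Among the genes at 7 or above, 6 of 6 TBC genes and 6 of 15 Rab genes were above 0, with medians of 0.16 and −0.06. Of all tested genes of any intensity 48.5% were above 0. The share among all tested genes at 7 or above is not given here, so these counts have no matched background. The part of intensity in the difference was not tested further.

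**Figure D4:**
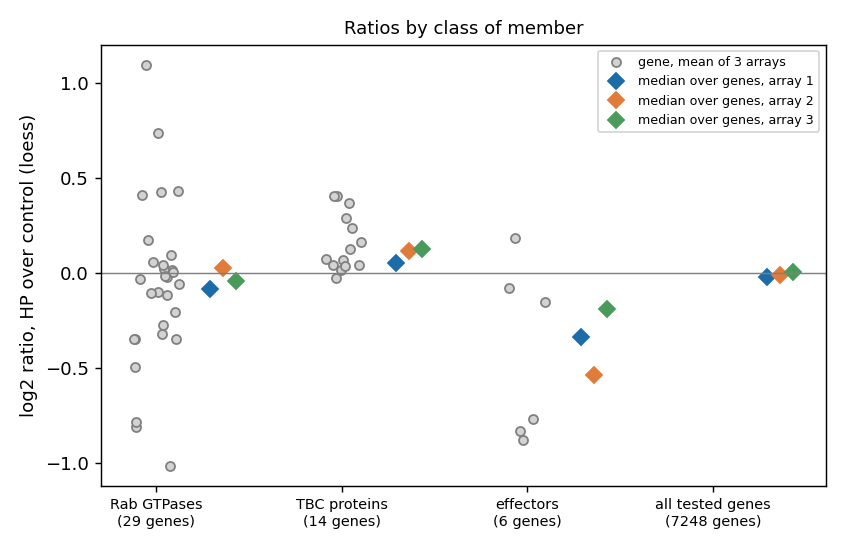
Log2 ratio of HP over control (vertical axis) by class, with a grey point per gene and a diamond for the median over genes on each of 3 arrays. The 3 TBC medians are above the 3 Rab medians, and the Rab genes spread further to both sides of 0 than the TBC genes.

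**Figure D5:**
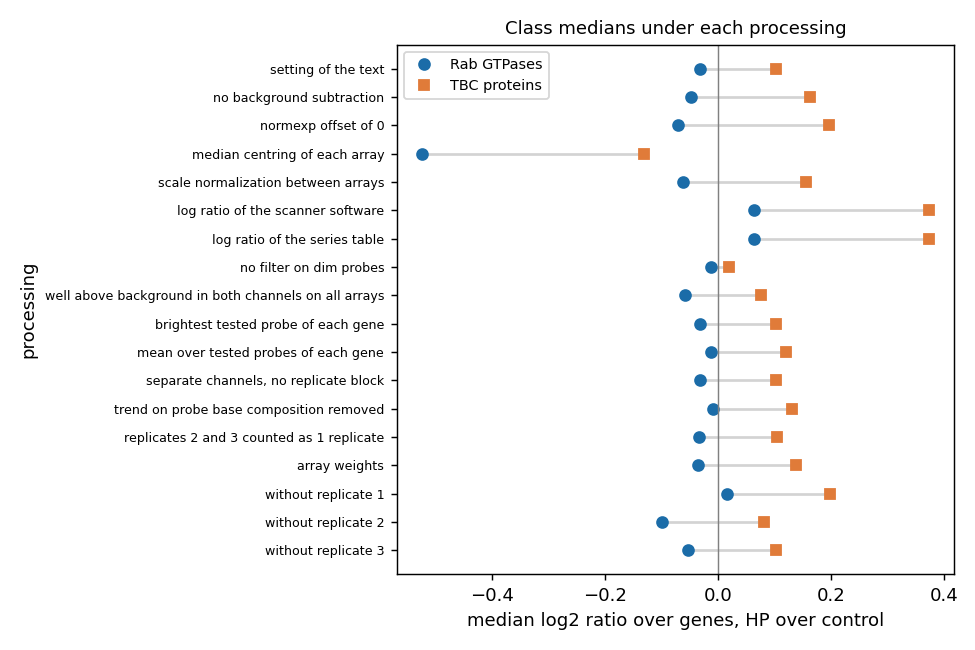
Median log2 ratio over Rab genes and over TBC genes (horizontal axis) under each processing setting. The TBC median is above the Rab median in each row, and median centring puts both below 0.

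Genes of the same pathway outside the name rule gave a mixed picture, and none passed adjustment over all tested probes. Of all tested genes 48.5% were above 0 and 51.5% below. Of 4 tested TBC genes with other names 2 were above 0 and 2 below, from Sgsm1 at −0.34 to Sgsm2 at 0.20. Of 7 tested genes of Rab prenylation and membrane loading 3 were above 0 and 4 below. Rabac1, which frees prenylated Rabs from GDI at membranes, was at −0.74 ± 0.10, with −0.77, −0.68 and −0.76, and Yipf5, a Golgi protein that interacts with Rabs, was at 0.51 ± 0.14. Other exchange factors were split evenly, 8 above and 8 below 0, from Mon1b, part of the Rab7 exchange factor, at −0.80 ± 0.42 to its partner Ccz1 at 0.51 ± 0.30. Of 17 other effectors 8 were above 0 and 9 below, from the phosphatase Ocrl at −1.07 ± 0.29 to the dynein adaptor Bicd2 at 0.55 ± 0.17.

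SNAREs, the proteins that fuse vesicles with their targets, were above 0 for 6 of 22 tested genes and below for 16. Of all tested genes 48.5% were above 0 and 51.5% below. The median of the SNAREs was −0.12. Vamp7, a SNARE of lysosomes and the cell surface, was lowest at −1.26 ± 0.29 (adjusted p = 0.195), with −0.62, −1.23 and −1.95, and Ykt6 was highest at 0.26 ± 0.13. Tethers were above 0 for 3 of 7 genes, from Exoc5 at −0.28 to Exoc8 at 0.60, both of the exocyst. Of 13 genes of the related Arf and Sar GTPases 6 were above 0, from Sar1a, which builds the vesicle coat at the endoplasmic reticulum, at −0.60 ± 0.18 to Arl4a at 0.50 ± 0.19.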

How the data were processed

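Spots were quantified by the submitters in Agilent Feature Extraction (version 9.5.1.1), per the file headers and the submitters' processing notes. Per the labels, RNA was amplified from picogram amounts before dye coupling. The deposited mean spot signals and local backgrounds are intensity values with nothing subtracted. The deposited log10 ratio (Cy5 over Cy3) of the scanner tables comes from background-subtracted, detrended and dye-normalized signals, and the series table deposited by the authors repeats it on the same log10 scale, with a median of 0 on each array.

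In R 4.3.3, limma 3.58.1 was used on the mean signals, which were corrected with normexp (offset 50) and normalized by loess with control spots at weight 0. Outlier spots (208, 172 and 325 on replicates 1, 2 and 3) were left out and spots of a probe averaged. An intercept was fitted with limma to log2 (Cy5 over Cy3) and p-values adjusted over 8581 probes. The arrays pair the pools, and a fit of separate channels is the unpaired alternative. Pool signals were scaled with Aquantile. Symbols follow RefSeq (GRCm38.p6), by accession for 22951 probes. A gene was represented by its brightest tested probe. The members and lists were chosen with earlier results of these data known. Named genes were the 4 highest and 4 lowest Rab and TBC genes of 1 sign on all arrays, all other regulators, genes with several tested probes, Rab5, Rab7 and Rab11 genes, and the extremes of each pathway list. Any other named member was picked with its values in view. The limma fit was tested on simulated log2 ratios with known changes. One member is counted but not reported here.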

Additional observations from a re-analysis of the deposited data

How the results depend on the processing

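With 17 other settings, 0 member probes passed adjustment in every one except median centring, where 10 of 65 passed, beside 1144 of all 8581 tested probes. All 10 were below 0, in a setting that moved the median of all tested probes to −0.37, with Rab11fip1, Rab3il1, Rab11b, Rab5a, Rab18, Gdi2, Rab7, Rab6a and Rab11fip5 among them. Member probes at an unadjusted limma p under 0.05 then numbered 25, all below 0 (beside 34.7% of all tested probes), against 8 with scale normalization between arrays (beside 14.4%), 7 with replicates 2 and 3 counted as 1 replicate (beside 11.3%) and 6 to 11 without a replicate (beside 9.56% to 24.7%). With separate channels and no replicate block 0 member probes passed adjustment (45 of all 8581). Of the member probes 10 had an unadjusted limma p under 0.05 (beside 11.5% of all), and Rab minus TBC stayed at −0.13. In the paired fit 0 member probes and 0 of all tested probes passed adjustment. There 4 member probes above 0 and 9 below had an unadjusted limma p under 0.05. The Rab minus TBC difference was −0.21 without background subtraction, −0.27 with an offset of 0, −0.22 with scale normalization, −0.31 with the log ratio of the scanner software or the series table, −0.39 with median centring, −0.031 without the filter on dim probes, and −0.18 to −0.16 without a replicate. Counts above 0 were 2 Rab and 2 TBC genes with median centring, 24 of 55 Rab genes without the filter, and 7 of 17 Rab and 8 of 9 TBC genes with signal required in both channels on all arrays, which left fewer genes. Without a replicate they were 11 to 15 Rab genes and 10 to 12 TBC genes. The shares of all tested genes above 0 in these settings are not given here, nor is the TBC count without the filter. These counts therefore have no background beside them and do not show whether the TBC genes stand apart.

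Of 29 named genes 16 kept 1 sign in every setting that gave a value, and no share over all tested genes stands beside this count. Among the 16, Erc1, Rab24, Rab39 and Rabepk passed the filter through control alone, and Rab8b and Tbc1d8b through HP alone. Such a pass favours the sign they kept. They had no value with signal required in both channels on all arrays. Median centring turned Dennd5a (−0.32), Rab1a (−0.59), Rab33a (−0.10), Rab34 (−0.022), Rab3gap2 (−0.10), Rabep1 (−0.34), Tbc1d10a (−0.025), Tbc1d10b (−0.60), Tbc1d12 (−0.47) and Tbc1d15 (−0.82). Rab6a turned with scale normalization (0.028) and array weights (0.020), Rab7 with the scanner's and the series table's log ratio (0.064), Rab23 with those log ratios (8.34e-05) and with the mean over probes (0.16), and Tbc1d15 with the mean over probes (−0.055) and with replicates 2 and 3 counted as 1 (−0.073). Leaving out 1 replicate at a time turned Rab6a (−0.31 to 0.083) and Rab7 (−0.17 to 0.044) without replicate 1, Tbc1d15 (−0.14 to 0.27) without replicate 2 or 3, and Rab23 (−0.17 to 0.048), Rabep1 (−0.095 to 0.53) and Tbc1d12 (−0.024 to 0.18) without replicate 3. Beyond what the settings do by construction, the cause was not tested. Probes near background limit the TBC values too, with 8 of 14 genes under a mean log2 intensity of 7.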
